A study of Mus musculus with 7 samples.

Results

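CD4+ T cells specific for a viral peptide were compared between the effector phase, day 7, and the memory phase, day 30, of an acute infection, in mice whose cells carried intact Thpok, the transcription factor encoded by Zbtb7b that maintains the helper lineage. Cells came from 3 of the 7 single cell RNA libraries of the series and were barcodes with 500 genes or more and no more than 10% of UMIs (unique molecular identifiers, which count captured mRNA molecules) from mitochondrial genes. They numbered 5143 of 16427 cells in all. All came from the spleens of C57BL/6 mice given lymphocytic choriomeningitis virus (LCMV), strain Armstrong, which causes an acute infection. All bound an I-Ab tetramer, a class II reagent, loaded with the GP66 peptide of the virus. The wild type library of day 7 (2261 cells) was sorted as CD44high and CD4+. The Thpok-sufficient libraries of day 7 (2157 cells) and day 30 (725 cells) came from Ox40-Cre+ Thpok wt/wt RosaYFP+ mice, in which Cre under the Ox40 promoter switches on a yellow reporter in activated T cells, and were sorted as CD44high and YFP+, with no CD4 gate in the labels. The labels give neither the number nor the age of the animals. With 1 library at day 30, the day and the library, with its own sort and capture, cannot be told apart.

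After an acute infection is cleared, most effector T cells die and a smaller pool persists as memory cells. Effector cells divide fast and rely on glycolysis, whereas memory cells are quiescent and depend for survival on interleukin 7, sensed through the receptor chain Il7r. Helper effectors in this infection are mainly Th1 cells, which activate macrophages, and follicular helper cells, which help B cells make antibody.

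Cells of day 30 held fewer UMIs and fewer genes. The median cell held 5604 UMIs in the wild type day 7, 5276 in the Thpok-sufficient day 7 and 2017 in the day 30 library, the order in which values of the 3 libraries are given throughout. The libraries summed to 14358928, 12488427 and 1551772 UMIs. After every cell was thinned to 1000 UMIs, which left out 7, 3 and 11 shallower cells, the median cell still held 584, 567 and 497 genes, against 1932, 1758 and 832 before thinning. Ribosomal protein genes took 27.2%, 28.1% and 32.3% of UMIs, mitochondrial genes 3.22%, 3.96% and 4.68%, and the nuclear noncoding RNA Malat1 1.29%, 2.05% and 4.86%. The limit of 500 genes fell closest to the cells of day 30: 101 of them had 500 to 599 genes, against 13 and 11 at day 7. Barcodes with 400 to 499 genes, just under the limit, numbered 48, 14 and 92. Whether less RNA per cell or less efficient capture set the smaller counts was not tested.

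**Figure D1:**
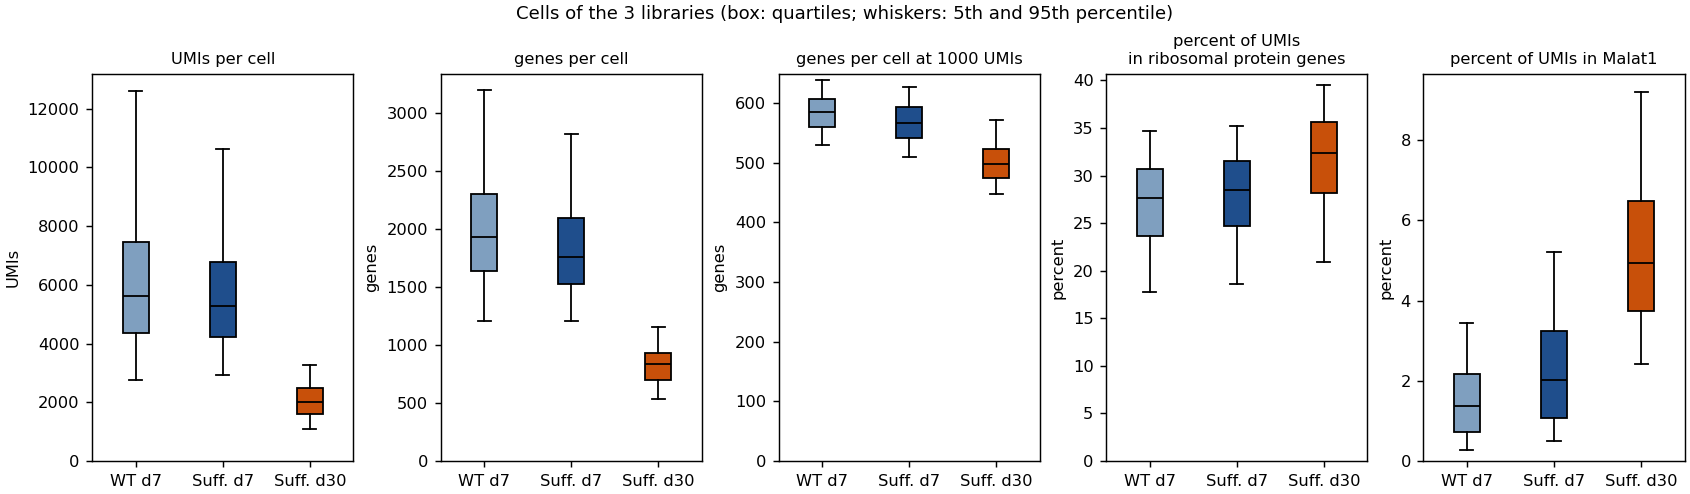
Box plots of UMIs per cell, genes per cell, genes per cell after thinning to 1000 UMIs, and the percent of UMIs in ribosomal protein genes and in Malat1, for the wild type day 7 (WT d7), Thpok-sufficient day 7 (Suff. d7) and Thpok-sufficient day 30 (Suff. d30) libraries; boxes are quartiles and whiskers the 5th and 95th percentiles over cells. The day 30 medians are 2017 UMIs and 497 genes at equal depth, against 5276 and 567 in the Thpok-sufficient day 7 library.

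All 3 libraries held T cells by their markers. At least 1 of 6 T cell markers had a UMI in 2261 of 2261, 2151 of 2157 and 713 of 725 cells. Markers of other cells summed to lower levels than the T cell markers. The 8 B cell markers in the files summed to 31.8, 44.8 and 76.0 CPM (UMI counts scaled to the same library total), with the defining marker Cd79a at 0 at day 30, and the 10 myeloid markers to 179, 160 and 142 CPM. The 6 natural killer markers summed to 3.41, 2.08 and 7.09 CPM, from 49, 26 and 11 UMIs. Of these, Ncr1, Klra4, Klra8 and Klra9 were at 0 in all 3 libraries, and the UMIs came from Klrb1c and Klre1. The 2 regulatory T cell markers, Foxp3 and Ikzf2, summed to 187.7, 157.9 and 77.98 CPM. Ikzf2 alone gave 187.5, 157.7 and 77.98 CPM of this. Foxp3, which defines regulatory T cells, was thus near 0 at day 7 and had no UMI at day 30. The CD8 T cell markers Cd8a and Cd8b1 together summed to 15.7, 16.0 and 7.73 CPM. A Cd8a UMI was seen in 4 of 2261, 6 of 2157 and 2 of 725 cells. Without thinning, a UMI of either gene was seen in 41, 50 and 6 cells that had no Cd4 UMI. It was seen together with a Cd4 UMI in 122, 98 and 5 cells. Barcodes with 10 to 100 UMIs, which hold free RNA rather than cells, gave the same 8 B cell markers 15.9, 517 and 79.7 CPM. Cell barcodes shared with the day 30 library numbered 3 and 1.

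Zbtb7b itself (chromosome 3, 89377644 to 89394776, minus strand, GRCm38) stood at 27.2, 31.4 and 20.6 CPM, and the ratio of the Thpok-sufficient day 7 to the day 30 library was 1.52 (95% counting interval 1.06 to 2.26). Cd4 stood at 226, 209.9 and 173 CPM. Both were within 2-fold at the 2 days. Counting intervals here and below are exact, cover counting error only, and say nothing of the spread between mice.

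A gene was called higher or lower at day 30 where its CPM was at least 2-fold above, or below, that of both day 7 libraries, among the 5544 genes with at least 20 CPM in 1 library. By this rule 334 genes (6.02%) were higher and 974 (17.6%) lower. The median gene was lower by 0.41 on the log2 scale, so that list medians are read against -0.41. For scale, the 2 day 7 libraries were at least 2-fold apart from each other in 278 genes (5.01%), while day 30 was that far from the Thpok-sufficient day 7 library in 1474 (26.6%) and from the wild type day 7 library in 1933 (34.9%). With the TMM factors of edgeR in place of library totals, 451 were higher and 670 lower, and the median gene stood at -0.21.

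The edgeR quasi-likelihood test, with both day 7 libraries as replicates and 1 residual degree of freedom, called no gene: 0 of 11125 (0%) higher and 0 of 11125 (0%) lower after Benjamini-Hochberg adjustment at 0.05, with a lowest adjusted p of 0.0754. At an unadjusted p under 0.05 it found 1518 higher and 1968 lower, and DESeq2 called 265 and 230. Differences below are therefore sizes in these libraries, and no gene in them passed the main test.

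**Figure D2:**
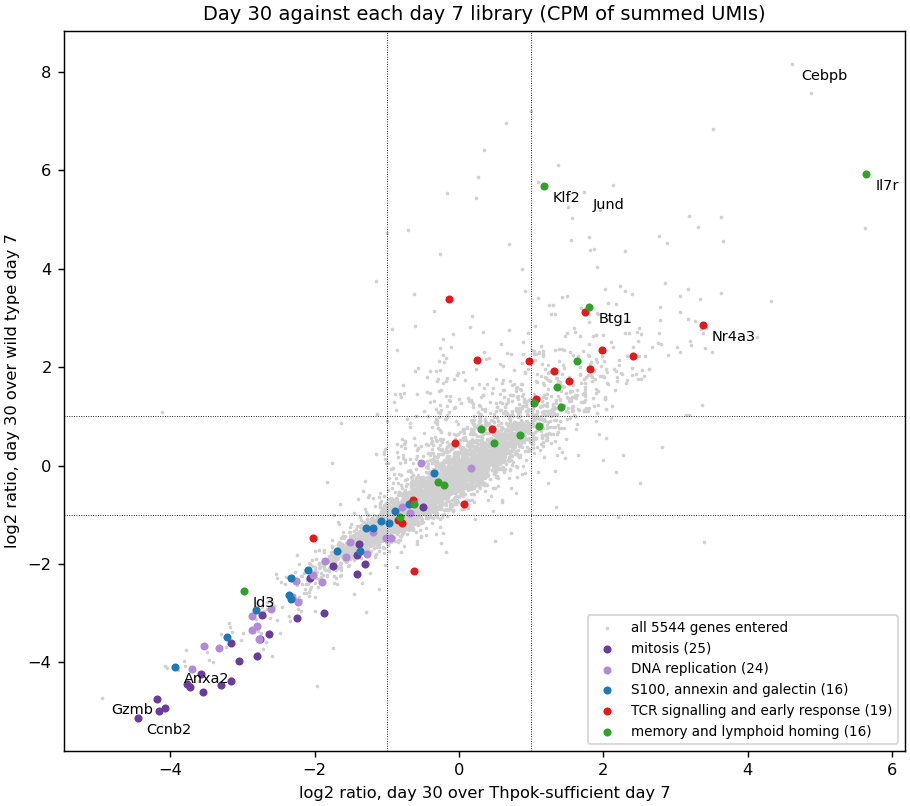
Each point is 1 of 5544 genes, with the log2 ratio of day 30 CPM to Thpok-sufficient day 7 CPM on the x axis and to wild type day 7 CPM on the y axis; colours mark 5 gene lists and dotted lines 2-fold. Mitosis genes lie at the lower left and Il7r at the upper right, while Klf2 and Jund lie far above the diagonal because the 2 day 7 libraries differ in them.

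Genes of cell division had the lowest ratios of any list. Of 25 mitosis genes that entered, 24 were lower at day 30 and none higher, with a median log2 ratio of -3.34. Of 24 DNA replication genes, 19 were lower and none higher, with a median of -2.13. These genes are switched on as cells pass through the cycle, in part through short promoter elements: the CHR and CCAAT elements of many mitotic genes, and the E2F elements of many replication genes. The promoters below are shown because they carry these letters, in 3 mitotic genes and 1 replication gene called lower. They run from 250 bases before to 50 after the start in RefSeq on GRCm38.p6, 5′ to 3′ on the strand of the gene. Capitals mark CCAAT, the CHR letters TTTGAA and the E2F variant TTTGGCGC on either strand. They are Ccnb2 (chr9:70421505-70421804, minus strand), Cdc20 (chr4:118437294-118437593, minus strand), Ube2c (chr2:164769679-164769978, plus strand, where 2 of the CCAAT matches overlap on opposite strands) and Mcm6 (chr1:128359656-128359955, minus strand).
Ccnb2: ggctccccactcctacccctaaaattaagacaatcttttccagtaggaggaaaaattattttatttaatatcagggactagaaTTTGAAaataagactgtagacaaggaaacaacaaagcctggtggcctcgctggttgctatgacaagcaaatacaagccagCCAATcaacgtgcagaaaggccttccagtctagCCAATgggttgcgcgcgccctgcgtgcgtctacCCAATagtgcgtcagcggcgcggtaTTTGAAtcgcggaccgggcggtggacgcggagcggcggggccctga
Cdc20: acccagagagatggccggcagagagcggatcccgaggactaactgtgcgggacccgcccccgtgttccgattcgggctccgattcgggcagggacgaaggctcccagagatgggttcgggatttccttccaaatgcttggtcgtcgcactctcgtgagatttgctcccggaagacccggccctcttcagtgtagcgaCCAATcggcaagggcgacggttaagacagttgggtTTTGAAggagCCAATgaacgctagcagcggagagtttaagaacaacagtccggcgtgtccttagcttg
Ube2c: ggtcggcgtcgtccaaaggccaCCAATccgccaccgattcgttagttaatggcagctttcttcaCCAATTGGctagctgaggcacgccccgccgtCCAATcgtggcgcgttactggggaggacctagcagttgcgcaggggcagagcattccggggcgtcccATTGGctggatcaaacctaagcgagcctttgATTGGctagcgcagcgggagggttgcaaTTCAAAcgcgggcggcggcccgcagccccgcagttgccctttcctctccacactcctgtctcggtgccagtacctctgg
Mcm6: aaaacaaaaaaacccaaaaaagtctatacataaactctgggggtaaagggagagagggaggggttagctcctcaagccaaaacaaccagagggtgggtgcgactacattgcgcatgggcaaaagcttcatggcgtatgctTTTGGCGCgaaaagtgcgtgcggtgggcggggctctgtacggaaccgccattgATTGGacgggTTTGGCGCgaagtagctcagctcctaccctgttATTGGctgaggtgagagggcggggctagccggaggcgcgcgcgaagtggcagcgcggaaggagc
Of 21 mitosis genes with a promoter in the table, 14 (66.7%) held TTTGAA and 18 (85.7%) held CCAAT, against 12.0% and 39.4% of the 4296 promoters of all genes that entered. Of 21 replication genes, 5 (23.8%) held TTTGGCGC, against 1.51%, and 3 (14.3%) held the E2F letters TTTCCCGC, against 2.26%. CCAAT was in 14 (66.7%) of these replication promoters too, against 39.4%. Over the 762 promoters of all genes called lower, 15.1% held TTTGAA, 43.3% CCAAT, 3.02% TTTGGCGC and 2.89% TTTCCCGC. A match describes the letters only.

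Ccnb2, the cyclin B2 that drives entry into mitosis, stood at 113, 70.7 and 3.22 CPM, and was 21.9-fold (95% counting interval 9.37 to 67.8) and 35.0-fold lower than in the Thpok-sufficient and wild type day 7 libraries. Cdc20, an activator of the anaphase-promoting complex, stood at 61.4, 34.5 and 1.93 CPM, and Ube2c, the ubiquitin-conjugating enzyme of that complex, at 156, 87.1 and 5.16 CPM. Birc5 (survivin), a subunit of the chromosomal passenger complex, stood at 182, 115 and 8.38 CPM. All 4 were far below both day 7 libraries, and the day 7 libraries differed less from each other than from day 30. Tpx2, a spindle assembly factor, stood at 43.7 and 25.7 CPM at day 7 and had no UMI at day 30, so that it was at least 13.3-fold lower against a floor of 3 UMIs. In the replication list, Tyms (thymidylate synthase) stood at 90.3, 66.9 and 5.16 CPM, Rrm2 (a subunit of ribonucleotide reductase) at 129.9, 119.5 and 10.3 CPM, and the helicase subunits Mcm5 and Mcm6 at 78.5, 56.5 and 7.73 CPM and 123, 108 and 26.4 CPM. Pcna, the sliding clamp also used in DNA repair, was not called, at 92.1, 138 and 95.4 CPM. Fbxo5, an inhibitor of the anaphase-promoting complex, and E2f2, an E2F transcription factor, were among the 15 genes with the largest lower ratios, at 32.6, 26.8 and 1.29 CPM and 25.8, 26.7 and 1.29 CPM.

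Per cell, the share with a UMI of any of 9 cycling genes (Mki67, Top2a, Cdk1, Ccnb1, Ccnb2, Ccna2, Birc5, Rrm2 and 2810417H13Rik) at 1000 UMIs was 26.8% in the wild type and 27.0% (95% exact binomial interval 25.1 to 28.9) in the Thpok-sufficient cells of day 7, and 2.24% (1.29 to 3.61) at day 30. Without thinning it was 56.6%, 53.0% and 4.41%. Mki67 alone was seen in 5.37%, 2.60% and 0.420% of thinned cells, and in 19.99%, 13.3% and 0.690% without thinning. When only cells without a UMI of these 9 genes were kept, 304 genes were still higher and 841 lower. Of these, 277 and 727 were shared with the calls over all cells. The filter used unthinned cells, so it removed cycling cells less completely in the shallower day 30 library.

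Metabolic genes were lower as well. Of 15 glycolysis genes that entered, 10 were lower and none higher (median log2 ratio -1.46). Tpi1 (triosephosphate isomerase) stood at 391, 263 and 38.0 CPM, Pkm (pyruvate kinase) at 1049.5, 794 and 208 CPM and Ldha (lactate dehydrogenase A) at 1164, 999 and 324 CPM. Pgk1, phosphoglycerate kinase, was not called, at 82.5, 33.2 and 38.7 CPM, with the day 7 libraries apart from each other. Of 37 nuclear genes of oxidative phosphorylation, 15 were lower and none higher (median -0.92), among them Ndufs1 of complex I at 40.5, 27.3 and 6.44 CPM. Of 34 proteasome genes, 22 were lower and none higher (median -1.33); Psma4, a subunit of the core particle, stood at 301, 275 and 72.2 CPM, and Psmb9, a subunit of the interferon-induced immunoproteasome, at 402, 338 and 98.6 CPM. By contrast, none of 18 ribosome biogenesis genes was called (median -0.26), and of 81 ribosomal protein genes 4 were higher and 1 lower (median 0.05). The higher 4, Rps27, Rps28, Rps29 and Rpl6l, cannot be separated here from near-identical copies, and Rps27 also differed between the day 7 libraries, at 253, 6785 and 17594 CPM. Of 8 nutrient uptake genes 1 was lower, the lactate exporter Slc16a3, and the median of -0.03 changed sign with the scaling (0.17 with TMM factors and 0.10 with totals without ribosomal protein and mitochondrial genes). In the cholesterol and fatty acid list 4 of 14 genes were lower and 1 higher (median -0.63). The higher one, Insig1, which holds back sterol synthesis, stood at 33.6, 28.5 and 87.6 CPM. For nutrient uptake and this list, the counts were too small to set apart from the shares over all genes, 6.02% higher and 17.6% lower.

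**Figure D3:**
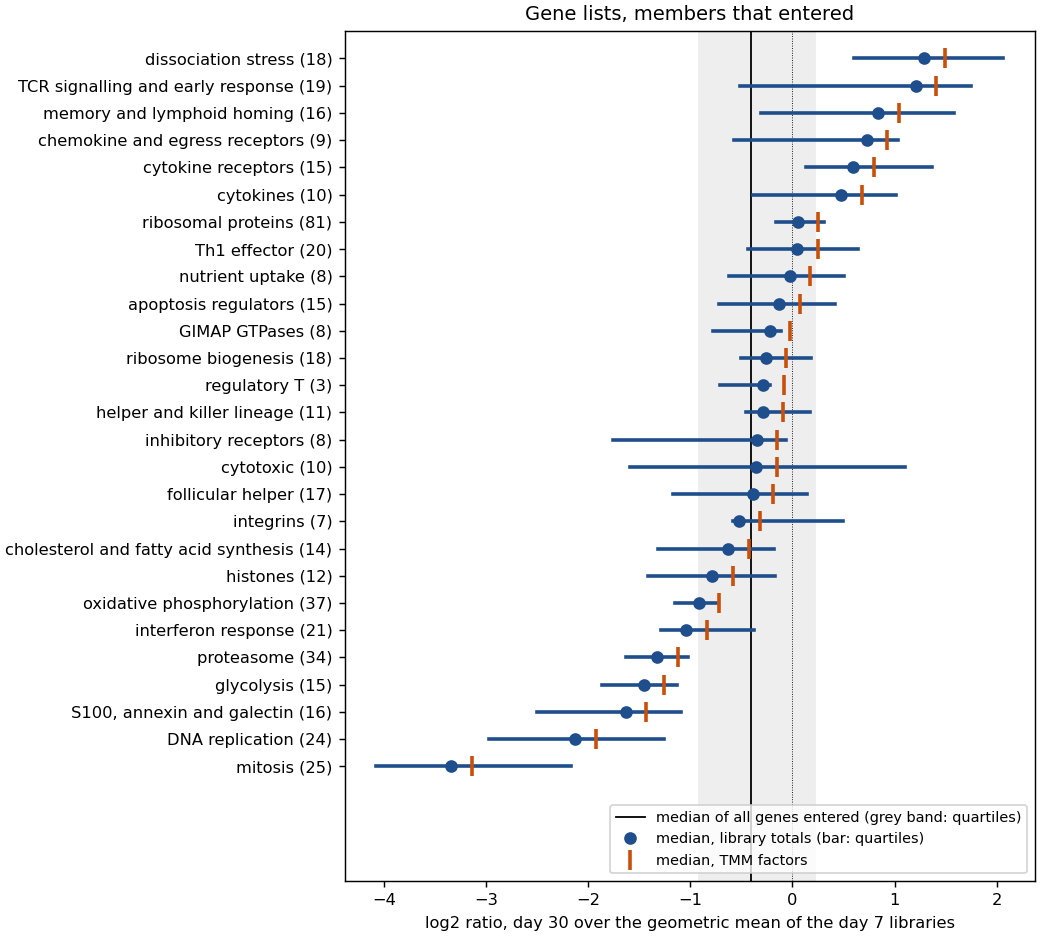
Median log2 ratio of day 30 CPM to the geometric mean of the 2 day 7 libraries for 27 gene lists, with the number of members that entered in brackets; points are medians with library totals, bars quartiles over members and orange marks medians with TMM factors. The mitosis list lies lowest at -3.34 and the dissociation stress list highest at 1.29, and the vertical line is the median of all genes, -0.41.

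Genes of motility, membrane repair and calcium binding formed another group at a lower level. Of 16 members of the S100, annexin and galectin list, 12 were lower and none higher (median log2 ratio -1.63). S100a4, a calcium-binding protein of motile cells, stood at 2393, 1996 and 215 CPM, which was 9.30-fold (8.35 to 10.4) and 11.1-fold (10.0 to 12.5) lower. Anxa2, an annexin, stood at 471, 427 and 27.7 CPM, Lgals3 (galectin 3) at 351, 323 and 45.8 CPM and the intermediate filament gene Vim at 772, 595 and 119 CPM. All 4 were lower against each day 7 library by at least 5-fold. Crip1, a LIM-domain protein, was not called, at 3341, 3289 and 1771 CPM.

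Cytotoxic and Th1 genes were called in both directions, in numbers too small to set apart from the shares over all genes, 6.02% higher and 17.6% lower. Gzmb (granzyme B, a protease of killing granules) had the largest lower ratio by the same ranking as used for Il7r below, the smaller of the 2 ratios. It stood at 170.3, 198 and 6.44 CPM, 30.8-fold (16.7 to 64.2) and 26.4-fold (14.3 to 55.2) lower, and the granzyme Gzma stood at 22.6, 15.8 and 0.644 CPM, the last from 1 UMI. Of 10 cytotoxic genes 3 were lower and 2 higher (median -0.36); Klrk1, which encodes the activating receptor NKG2D, stood at 5.64, 4.48 and 43.2 CPM. Of 20 Th1 genes 2 were lower and 2 higher (median 0.05). Cxcr3, the receptor for interferon-induced chemokines, stood at 311, 226 and 90.9 CPM and the granule protein gene Nkg7 at 772, 764 and 303 CPM, both lower. Ccl5, a chemokine of Th1 and memory T cells, stood at 701, 937 and 1933 CPM, and Fasl, the ligand of the death receptor Fas, at 8.71, 11.5 and 56.7 CPM, both higher. Tbx21, which encodes the Th1 regulator T-bet, stood at 26.1, 29.2 and 30.3 CPM and was not called.

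Of 17 follicular helper genes, 5 were lower and 1 higher (median -0.39, beside -0.41 over all genes). Over all genes that entered, 17.6% were lower and 6.02% higher. Pdcd1, the inhibitory receptor PD-1, stood at 109.5, 107 and 40.6 CPM, and Sh2d1a, the adaptor SAP needed for contact with B cells, at 409, 392 and 151 CPM, both lower. Cd40lg, the ligand through which helper cells activate B cells, was the 1 gene higher, at 175, 159 and 388 CPM. Bcl6, a follicular helper transcription factor, had an edgeR log2 fold change of 1.73. It was seen in 0.621%, 0.650% and 1.68% of cells at 1000 UMIs, and in 4.42%, 3.76% and 4.28% without thinning. Cxcr5, the chemokine receptor that guides cells into B cell follicles, stood at 74.4, 62.1 and 45.8 CPM, and Cxcr6, a chemokine receptor of Th1 cells, at 78.4, 72.5 and 56.1 CPM. At 1000 UMIs per cell Cxcr5 was seen in 7.41%, 6.55% and 4.48% of cells, and Cxcr6 in 6.08%, 4.97% and 4.76%. Without thinning Cxcr5 was seen in 32.99%, 25.7% and 8.97% and Cxcr6 in 18.8%, 16.1% and 9.10%. Both were seen in 72 of 2261 (3.18%), 32 of 2157 (1.48%) and 2 of 725 (0.276%, interval 0.0334 to 0.993) cells without thinning, and in 2 of 2254, 0 of 2154 and 0 of 714 cells at 1000 UMIs.

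Of 8 inhibitory receptor genes 3 were lower and 1 higher (median -0.35, beside -0.41 over all genes). These counts were too small to set apart from the shares over all genes, 6.02% higher and 17.6% lower. Cd160 stood at 46.2, 41.2 and 5.80 CPM, and Lag3, a receptor for class II molecules, at 26.8, 27.0 and 3.87 CPM. Tigit was higher at 9.75, 5.20 and 22.6 CPM. Of 21 interferon response genes, 8 were lower and 1 higher (median -1.04). Ifi27l2a stood at 2451, 2232 and 557 CPM, and Zbp1, a sensor of viral nucleic acid, at 89.3, 79.5 and 26.4 CPM. Irf7, an interferon-induced transcription factor, was the 1 gene higher, at 46.0, 40.4 and 98.6 CPM, and was named after its value was seen.

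Il7r, the survival receptor named above, had the largest higher ratio when each gene is ranked by the smaller of its 2 ratios. It lies on chromosome 15, 9505788 to 9530176, minus strand, and stood at 7.10, 8.65 and 433 CPM, from 102, 108 and 672 UMIs. It was 50.1-fold (40.8 to 61.9) and 61.0-fold (49.4 to 75.8) above the Thpok-sufficient and wild type day 7 libraries. Its edgeR log2 fold change was 6.05, and like every other gene it did not pass the edgeR test. At 1000 UMIs per cell an Il7r UMI was seen in 0.666% (0.373 to 1.10), 1.02% (0.641 to 1.54) and 35.4% (31.9 to 39.1) of cells, and without thinning in 3.54%, 4.03% and 51.0%. In free RNA of day 30 Il7r stood at 330.3 CPM, beside 433 CPM in cells. How much of the Il7r in cells came from free RNA was not tested.

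**Figure D4:**
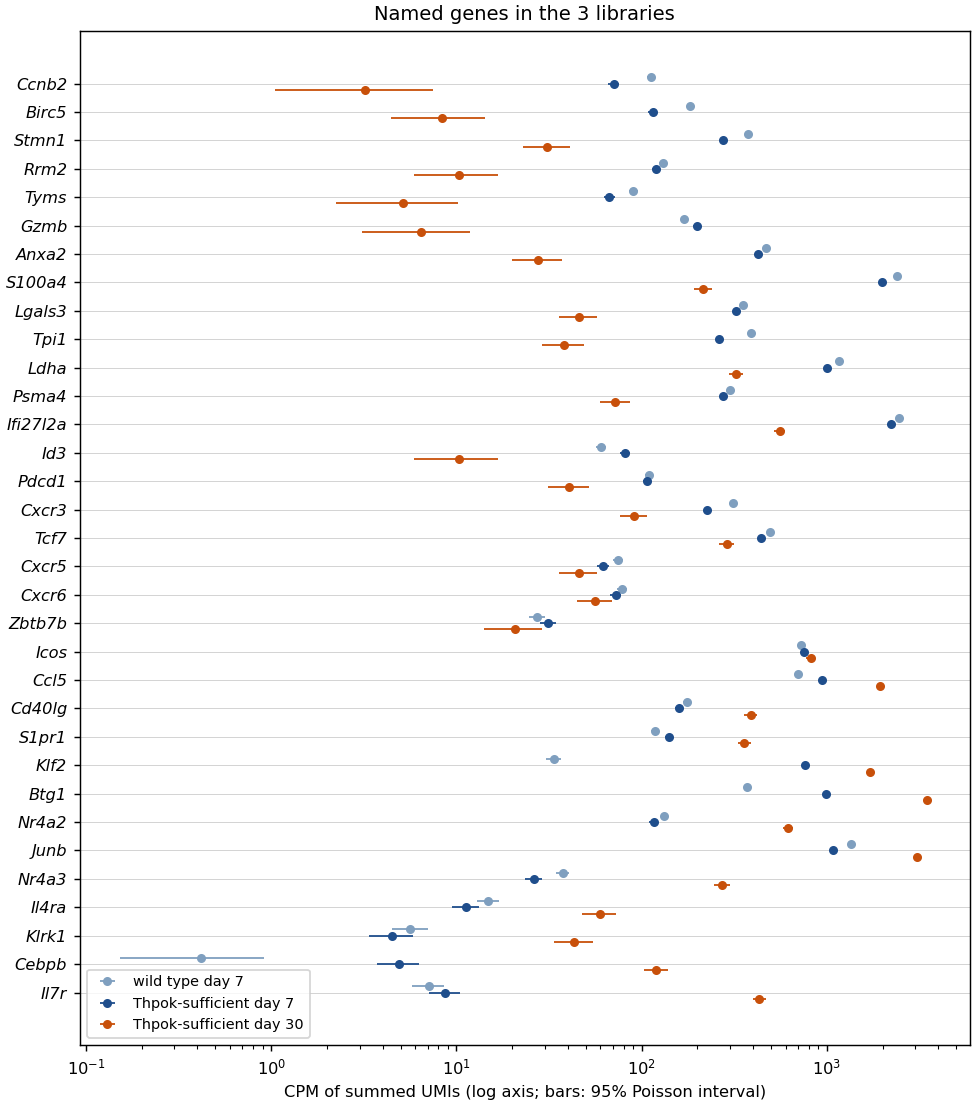
CPM of 33 named genes on a log axis in the wild type day 7, Thpok-sufficient day 7 and Thpok-sufficient day 30 libraries, with 95% exact Poisson intervals of the summed UMIs. The day 7 libraries lie close together for most genes and apart for Klf2, Btg1 and Cebpb, and day 30 lies below them for Ccnb2 and above them for Il7r.

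Of 16 genes of the memory and lymphoid homing list, 7 were higher and 1 lower (median log2 ratio 0.84). S1pr1, the receptor that lets T cells leave lymphoid organs, stood at 118, 140.4 and 359.6 CPM, 2.56-fold (2.32 to 2.82) and 3.05-fold (2.77 to 3.36) higher. Klf3, a zinc finger factor, stood at 64.3, 90.0 and 279 CPM, Satb1, a chromatin organiser of T cells, at 148, 174 and 358 CPM, and Btg1, which promotes quiescence, at 373, 996 and 3477 CPM. Klf2, a regulator of S1pr1 and of quiescence, stood at 33.6, 763 and 1721 CPM: it was 2.25-fold above the Thpok-sufficient and 51.3-fold above the wild type day 7 library, so its size rests on which day 7 library is used. The same held for Jund, an AP-1 factor, at 59.1, 836 and 2777 CPM. The libraries were read at 2 different lengths per the labels' protocols, and they do not say which had which; the part of read length in these genes was not tested.

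Other genes of central memory were not called higher. Tcf7, which encodes the memory regulator TCF1, stood at 495, 444 and 289 CPM, and the survival gene Bcl2 at 256, 224 and 194 CPM; neither was called. At 1000 UMIs Tcf7 was seen in 37.0%, 35.5% and 26.5% of cells, and without thinning in 81.4%, 78.03% and 42.8%. Ccr7, the receptor for entry into lymph nodes, stood at 89.7, 76.4 and 137 CPM and was not called. Id3, an inhibitor of E proteins linked to follicular and memory cells, was the 1 member called lower, at 60.5, 81.4 and 10.3 CPM, 7.89-fold (4.83 to 13.9) and 5.86-fold (3.59 to 10.3) lower.

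**Figure D5:**
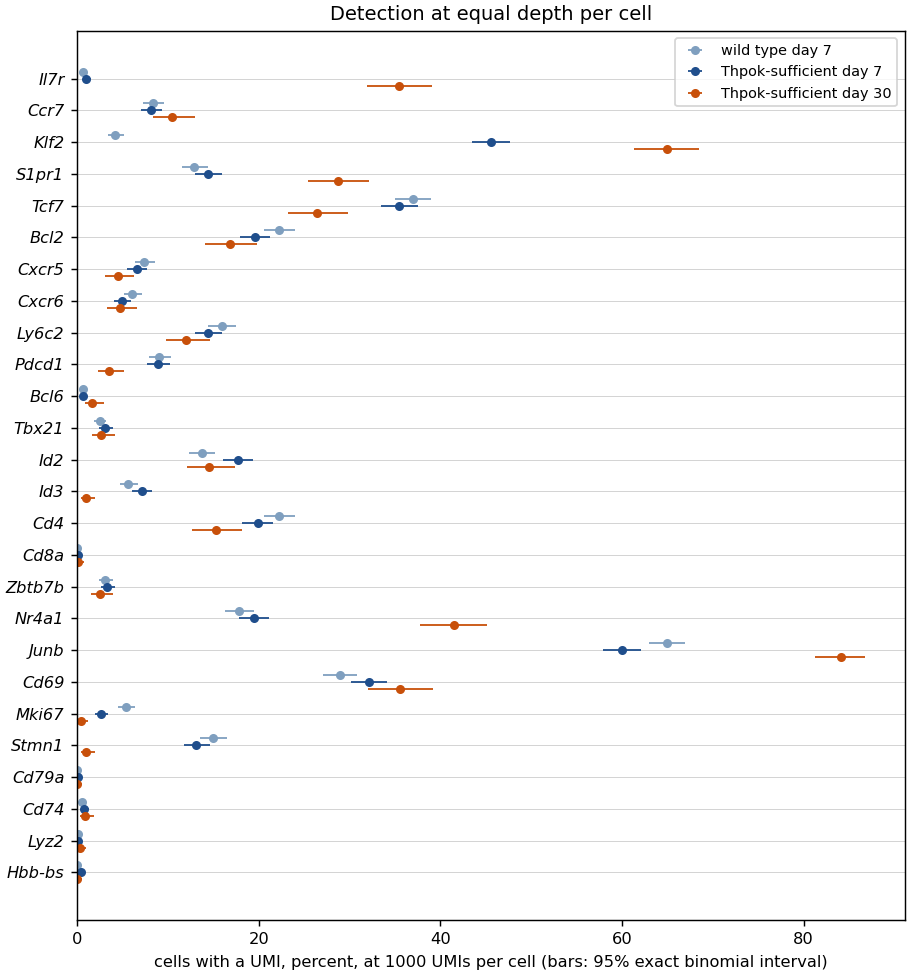
Percent of cells with a UMI of named genes after each cell was thinned to 1000 UMIs, in the 3 libraries, with 95% exact binomial intervals. Il7r goes from 0.666% and 1.02% at day 7 to 35.4% at day 30, Id3 from 5.63% and 7.10% to 0.980%, and the B cell, myeloid and red cell genes at the bottom stay under 1% in each library.

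Over all genes that entered 6.02% were higher and 17.6% lower, the shares against which the counts here are read. Cytokine receptors as a list stood higher, with 5 of 15 genes higher and none lower (median 0.60). Beside Il7r these were Il4ra, a chain of the receptor for interleukin 4, at 14.9, 11.3 and 59.3 CPM, Il21r, the receptor for interleukin 21, at 85.2, 64.2 and 209 CPM, Il6st, the shared chain gp130, at 18.5, 15.7 and 41.9 CPM, and Ifngr1, a chain of the interferon gamma receptor, at 155, 99.5 and 337 CPM. Among 9 chemokine and egress receptors 2 were higher and 2 lower (median 0.73); Cxcr4, the receptor for the stromal chemokine CXCL12, stood at 23.7, 32.3 and 103 CPM, higher, and the sphingosine receptor S1pr4 at 161, 142 and 70.2 CPM, lower. Of 10 cytokine genes Cd40lg alone was called, and Ifng, interferon gamma, stood at 145, 181 and 109 CPM. Of 7 integrins Itga6 alone was called, higher, at 15.2, 15.5 and 32.9 CPM. Of 15 apoptosis regulators 3 were lower and 1 higher; the higher one, the killer gene Bbc3 (PUMA), stood at 5.64, 12.1 and 27.1 CPM, and the list median of -0.13 became 0.07 with TMM factors. None of 8 GIMAP GTPase genes, which support survival of resting T cells, was called. Of 12 histone genes 4 were lower, of 11 helper and killer lineage genes Satb1 alone was higher, and of 3 regulatory T genes Ikzf2 was lower. Apart from the cytokine receptors, the counts of these lists were too small to set apart from the shares over all genes.

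Genes of the early response to T cell receptor signals were also higher. Of 19 such genes 8 were higher and 1 lower (median log2 ratio 1.21). Nr4a1, a nuclear receptor induced within hours of receptor signals, stood at 210.4, 241 and 693 CPM, Nr4a2 at 133, 116 and 617 CPM and Nr4a3 at 37.5, 26.1 and 272 CPM. Tnfaip3 (A20), a brake on NF-kB, stood at 166, 184 and 645 CPM. Cd69, an activation and retention marker, was not called, at 344, 421 and 578 CPM. Genes known to be induced when tissue is taken apart stood higher in the same library: of 18 dissociation stress genes 10 were higher and none lower (median 1.29), with summed levels of 5822, 6191 and 11440 CPM. Junb, an AP-1 factor, stood at 1359, 1079 and 3069 CPM and Atf3, a stress-induced factor, at 1.11, 0.641 and 31.6 CPM. Nr4a1 was seen in 17.8%, 19.5% and 41.5% of cells at 1000 UMIs, and Junb in 65.0%, 60.0% and 84.2%. Without thinning the shares were 55.8%, 55.1% and 60.4% for Nr4a1 and 95.4%, 92.4% and 93.9% for Junb. The part of cell handling in the early response genes was not tested.

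Outside the lists, Cebpb, a transcription factor of inflammatory and metabolic genes, stood at 0.418, 4.88 and 119.9 CPM; the day 7 libraries held 6 and 61 UMIs, so that its ratio was 24.5-fold (18.3 to 33.3) against the Thpok-sufficient and 287-fold (129 to 792) against the wild type day 7 library. Klf9, a zinc finger factor, stood at 1.67, 3.12 and 39.3 CPM, Maff, a small Maf factor, at 9.05, 11.9 and 98.6 CPM, Rhob, a small GTPase, at 3.06, 8.97 and 88.9 CPM, Vwa1, a matrix protein gene, at 5.57, 15.1 and 186 CPM, and Neurl3 at 13.1, 11.5 and 103 CPM. On the lower side were Zbtb32, a repressor induced in activated lymphocytes, at 65.4, 65.3 and 3.87 CPM, and Padi4, which converts arginine to citrulline in histones, at 34.3, 28.7 and 1.29 CPM. Gene type mattered among the higher calls: 29 of 43 pseudogenes that entered were higher and none lower, and of the 5345 protein-coding genes outside the ribosomal proteins 276 (5.16%) were higher and 964 (18.0%) lower. Pseudogenes took 0.744%, 1.40% and 3.83% of UMIs. Of the 15 genes with the largest higher ratios, Gm10263 is a pseudogene, Gm11175 and Gm42726 are antisense RNAs, AY036118 is a noncoding RNA and Rps27rt a near copy of a ribosomal protein gene; their reads may come from other genes and their values are uncertain.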

How the data were processed

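The authors deposited raw UMI counts for each barcode and gene, not normalized. Per the labels' protocols the libraries were made with version 2 of the 10x 3′ kit. The submitters' processing notes name bcl2fastq 2.17, Cell Ranger and the build mm10. Empty droplets are in the files and were removed by the 2 cell limits of the report. No doublet caller was run and no doublets were removed. Counts were summed per library, and cells were not used as replicates. In calls, rankings and log2 ratios of CPM a count under 3 UMIs was set to 3. In the fold ratios of single genes only a count of 0 was. Groups were taken from the labels. The p-values measure only the spread between libraries, which may be technical. The edgeR test (4.0.16, TMM, filterByExpr, R 4.3.3; tested on simulated data) took both day 7 libraries as replicates although their genotype and gate differ, and assumes that the lone day 30 library varies like them. The biological coefficient of variation was 0.247. DESeq2 1.42.0 was an alternative. The labels' mm10 is GRCm38, and gene positions are those of GENCODE on that build.

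The members, lists, motifs and rule for named genes were chosen with earlier results of these data known. Named genes were Zbtb7b, in each direction the 15 genes at most with the largest smaller-of-2 ratio and at least 50 UMIs and 20 CPM in the library of the higher day, and of each list up to 5 called and 3 uncalled members. Cell type markers and the genes whose share of cells was computed could be named too. Mcm6, Mcm7, Lig1, Rfc4, Kif11 and Irf7 fall outside this rule and were chosen after their values were seen. T cell receptor and immunoglobulin segments and sex-linked genes were left out of the ranking. A few genes that count in the list and marker totals are not reported here by name.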

Additional observations from a re-analysis of the deposited data

How the results depend on the processing

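The number of genes called at day 30 depended on the limits set. With a minimum of 5 CPM, 617 genes were higher and 1510 lower, and with 50 CPM 197 and 586. At 1.5-fold the counts were 608 and 1992, and at 4-fold 65 and 129. Against the wild type day 7 library alone 533 were higher and 1400 lower, and against the Thpok-sufficient one alone 441 and 1033. Scaling moved the median gene from -0.41 to -0.21 with TMM factors and to -0.28 with totals without ribosomal protein and mitochondrial genes. The higher share of all calls went from 25.5% to 40.2% with TMM factors. Under the other cell filters, thinning, free RNA subtraction and gene types, both counts stayed within 1.5 times. Without the 1 day 30 cell above 10000 UMIs, which held 1.80% of that library's UMIs, 338 were higher and 1060 lower. That alternative, the protein-coding genes (276 and 964), the limit on UMI totals (333 and 978) and the per-cell scaling of lists were chosen after seeing the data.

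The edgeR counts of 0 and 0 became 714 and 1110 without a filter beyond 1 UMI, 1 and 0 with library totals, and 265 and 230 in DESeq2; the cause was not tested. Over the alternatives of single genes, 2927 values stayed within the day 30 counting interval, 433 moved beyond it and 4 changed sign. Those 4, in cells with no UMI of the 9 cycling genes, were Mcm7 at 0.24, Lig1 at 0.48, Rfc4 at 0.062 and Kif11 at 0.59 (log2). A gene with at most 3 UMIs at day 30 in an alternative, or used to remove cells in it, has only a bound there and was given no value, whichever way it moved: 9 genes in most alternatives and up to 36 after thinning. This rule was set after seeing that such bounds changed sign. The nutrient uptake median became 0.17 (TMM) and 0.10 (totals without ribosomal protein and mitochondrial genes), and that of apoptosis regulators 0.073 (TMM). No paired analysis was possible because each group is 1 library. No library could be left out of the edgeR fit, since no residual degree of freedom would remain. Depth limits day 30 most: 3 UMIs there equal 1.93 CPM.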
